A study of Mus musculus with 12 samples.

Results

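Cells sense insulin and the insulin-like growth factors through a short chain of proteins. The ligands IGF1 and IGF2 bind the IGF1 receptor, which like the insulin receptor is a tyrosine kinase, while the IGF2 receptor carries IGF2 to the lysosome and removes it. The active kinases phosphorylate the docking proteins IRS1 and IRS2, which bring PI3 kinase to the membrane and so switch on AKT and mTOR. GRB10 binds the receptors and dampens them, and PIK3IP1 is a membrane protein that restrains PI3 kinase. In myoblasts this chain is known to serve growth, survival and differentiation. The mTOR kinase is known to feed back on it, partly through the IRS proteins.

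The genes described here are these 9, namely Igf1, Igf2, Igf1r, Igf2r, Insr, Irs1, Irs2, Grb10 and Pik3ip1. They were taken by name from the 38481 genes that resulted when the listed transcripts were matched to GENCODE M21 and summed per gene. Reads were counted for 7 of the 9, and these 7 were tested. Igf2 and Grb10 had no count in any library.

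The cells were C2C12, a single mouse myoblast line, so that all 12 libraries share 1 genetic background. RNA was read in 4 groups of 3 libraries. These crossed an siRNA against Renilla luciferase (Luc), a gene that mice lack, or 1 siRNA against Crebl2, a CREB-like bZIP protein, with the mTOR inhibitor rapamycin or its ethanol control. The groups are called Luc ethanol, Luc rapamycin, Crebl2 ethanol and Crebl2 rapamycin. All cells carried an siRNA for 3 days, and then had rapamycin at 20 nM or ethanol for 12 h. With 1 Crebl2 siRNA, effects of the target and of that siRNA's sequence cannot be told apart. Nothing in the labels states that the 3 libraries of a group were separate cultures, so p-values refer to differences among libraries that may be technical repeats.

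Library totals lay between 33404087 and 42891015 counts. Crebl2 itself (chromosome 6, 134830154 to 134858931, plus strand, GRCm38) had levels of 23.8, 25.3 and 26.2 CPM (read counts scaled to library size) in Luc ethanol and 4.87, 7.41 and 6.02 CPM in Crebl2 ethanol. Rapamycin libraries held 40, 36.4 and 36.3 CPM with the control siRNA against 10.7, 8.97 and 9.49 CPM with its own. The targeted RNA was thus lower in every library with the siRNA. All 9 myoblast markers were measured, and their summed level was 5445 to 5795 CPM in Luc ethanol, 3941 to 4124 CPM in Luc rapamycin, 5028 to 5483 CPM in Crebl2 ethanol and 4448 to 4527 CPM in Crebl2 rapamycin. With rapamycin 5 of the 9 fell and 1 rose on the Luc siRNA (Cdh15 by −0.80 and Itga7 by −0.81 on the log2 scale), and 5 fell and 2 rose on the Crebl2 siRNA. With the Crebl2 siRNA 2 rose and 2 fell in ethanol, and 6 rose and 1 fell in rapamycin. Of all tested genes, 21.6% fell and 19.5% rose with rapamycin on the Luc siRNA, and 25.6% fell and 19.7% rose on the Crebl2 siRNA. With the Crebl2 siRNA, 21.4% of them rose and 17% fell in ethanol, and 16.3% rose and 16.8% fell in rapamycin. The muscle and fibroblast counts below are to be read against the same shares. The summed level of 12 genes of differentiating muscle was 765 to 962 CPM in Luc ethanol, 281 to 347 CPM in Luc rapamycin, 120 to 141 CPM in Crebl2 ethanol, and 76.5 to 90.7 CPM in Crebl2 rapamycin. All 10 tested genes of that list fell with the Crebl2 siRNA in ethanol, and all 10 fell with rapamycin on the Luc siRNA. In rapamycin 9 of the 10 fell with the siRNA, and 8 fell with rapamycin on the Crebl2 siRNA. The interaction of siRNA and drug was called for 4 of them, beside 1.2% of all tested genes. The part of these lists in the results below was not tested. In such bulk RNA, fewer cells of one kind and less RNA per cell cannot be told apart. Genes of fibroblasts, which myoblast lines also express, summed to 9387 to 12637 CPM, and 4 of 6 tested fell and 1 rose with the Crebl2 siRNA in ethanol. Macrophage genes summed to 29.7 to 48.6 CPM, with Ptprc, Adgre1 and Itgam at 0 on under 10% countable bases. Most of that sum was Cd14, at 28.7 to 43.8 CPM, while Lyz2 and Cd68 reached at most 2.55 and 0.623 CPM. Hepatocyte genes summed to at most 1.31 CPM, with Alb and Ttr at 0 on fully countable bases. Serpina1a and Hnf4a were at 0 too, but on 14% and 0.138% countable bases. Endothelial genes summed to at most 0.269 CPM and adipocyte genes to at most 1.58 CPM. Fabp4, the 1 adipocyte gene tested, rose with the siRNA by 1.78 in ethanol and 1.66 in rapamycin on the log2 scale. Libraries of a group also differed in the level of long transcripts, which touches the receptors and is given with them.

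Sequence upstream of Irs1 and Irs2 is shown because both adaptors rose with rapamycin, and because their windows were the only ones among the members to hold an insulin response element core, CAAAACA. The windows come from RefSeq (GRCm38.p6) and run from 250 bases before a gene's start to 50 after it. Such a window was found for 8 of the 9 genes, all but Insr. The 150 bases before each start are printed 5′ to 3′ on the gene's strand, for Irs1 at chr1:82291440-82291589 and for Irs2 at chr8:11008930-11009079, both on the minus strand. Capitals mark CACGTG, a palindromic E-box, and TGTTTTG, which is CAAAACA read on the other strand.
Irs1: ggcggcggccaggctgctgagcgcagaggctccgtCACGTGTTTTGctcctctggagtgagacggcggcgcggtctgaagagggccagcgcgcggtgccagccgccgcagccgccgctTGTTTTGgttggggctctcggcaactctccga
Irs2: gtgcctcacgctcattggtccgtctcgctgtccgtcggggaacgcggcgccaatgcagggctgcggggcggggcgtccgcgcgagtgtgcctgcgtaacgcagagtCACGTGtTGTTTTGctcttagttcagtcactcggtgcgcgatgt

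The motifs lie side by side in both genes. In Irs1 they begin 115 and 111 bases upstream of the start and share 2 bases, and another CAAAACA core begins 32 bases upstream. In Irs2 they begin 44 and 37 bases upstream with 1 base between them. CAAAACA on either strand occurred in 6.28% of 32851 promoter windows and CACGTG in 7.15%. Both with first bases at most 10 apart occurred in 9 windows, or 0.0274%. CACGTG and this distance were chosen after the sequences had been seen, so the count describes these windows and tests nothing.

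Those 9 windows belong to 8 genes. Besides Irs1 and Irs2 they include Irs4, a further receptor substrate, and Klf11, a Krüppel-like transcription factor. For comparison, 40 bases of each are shown, for Irs4 at chrX:141725348-141725387 (minus strand) and for Klf11 at chr12:24651141-24651180 (plus strand), with the same motifs in capitals.
Irs4: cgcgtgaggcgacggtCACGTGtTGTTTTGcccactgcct
Klf11: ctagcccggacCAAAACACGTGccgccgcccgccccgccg

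Irs4 has the order and spacing of Irs2, and Klf11 has the letters of Irs1 read on the other strand. They lie further from the start, at 154 and 147 bases upstream in Irs4 and at 214 and 219 in Klf11. Irs4 had 1 count over all 12 libraries and was not tested. Pcbp1, an RNA-binding protein gene, and Pyroxd1, an oxidoreductase gene, hold the pair too and were tested, though their sequences are not printed. Pcbp1 fell with the siRNA, by 0.28 in ethanol and 0.30 in rapamycin on the log2 scale (edgeR adjusted p = 0.0045 and 0.003). With rapamycin it differed by −0.17 and −0.20, where Irs2 rose. Pyroxd1 rose with the siRNA in rapamycin by 0.35 (edgeR adjusted p = 0.00077), where Irs2 fell. Its other differences were 0.19 with the siRNA in ethanol and 0.02 and 0.18 with rapamycin. The calls of Pcbp1 with rapamycin on the Crebl2 siRNA and of Pyroxd1 with the siRNA in ethanol were lost in 9 and 13 of 20 alternatives. That of Pyroxd1 with rapamycin on the Crebl2 siRNA was lost in 5. The difference of Pcbp1 with rapamycin on the Luc siRNA, not called in the main fit, became called in 12. The remaining pair, 1700019P21Rik and Gm38926, were not tested.

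The third member with CACGTG was Igf2r, whose RNA did not pass the test in any contrast. Its 60 bases before the start (chr17:12769707-12769766, minus strand) are shown for comparison, with CACGTG in capitals at 48 and 7 bases upstream.
Igf2r: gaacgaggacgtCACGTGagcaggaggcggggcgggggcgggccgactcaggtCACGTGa

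The other motifs searched were not limited to the adaptors. The 8 genes have 12 windows in the table, since Igf2 has 4 and Grb10 has 2. GTAAACA, the core bound by FoxO factors, was in 0 of the 12 windows and in 3.65% of all windows. TGACG, the first part of the cAMP response element, was in 5 of the 12 windows, of 4 genes (Irs1, Igf2, Grb10 and Igf2r), and in 20.8% of all. CAGCTG, the E-box form bound by muscle regulators, was in 2 of the 12 (Igf1 and Pik3ip1) and in 16.3% of all. On one strand or the other, TGACG overlaps CACGTG in Irs1 and at 2 of its 3 places in Igf2r. A match describes letters in a window, and none of these shows binding.

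The members fell into 3 kinds of response. Irs2 and Pik3ip1 fell with the Crebl2 siRNA and rose with rapamycin. Igf1r, Insr and Irs1 rose with rapamycin and were not called with the siRNA. Igf1 and Igf2r were not called in any of the pairwise contrasts. Changes were tested with edgeR's quasi-likelihood test in 1 fit over the 12 libraries, and calls needed an adjusted p (Benjamini-Hochberg, over 13247 genes) under 0.05. In ethanol the siRNA called 2 of 7 members lower and 0 higher, where 17% of all tested genes were called lower and 21.4% higher. In rapamycin it again called 2 lower and 0 higher, beside 16.8% lower and 16.3% higher among all genes. Rapamycin called 5 of 7 higher and 0 lower with the Luc siRNA, where 19.5% of genes were called higher and 21.6% lower. With the Crebl2 siRNA it called 5 higher and 0 lower, beside 19.7% higher and 25.6% lower. The median log2 fold change of the 7 members was −0.05 and −0.07 for the siRNA and 0.49 and 0.43 for rapamycin. Over all tested genes these medians were 0.01, −0.01, 0.02 and −0.01.

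**Figure D1:**
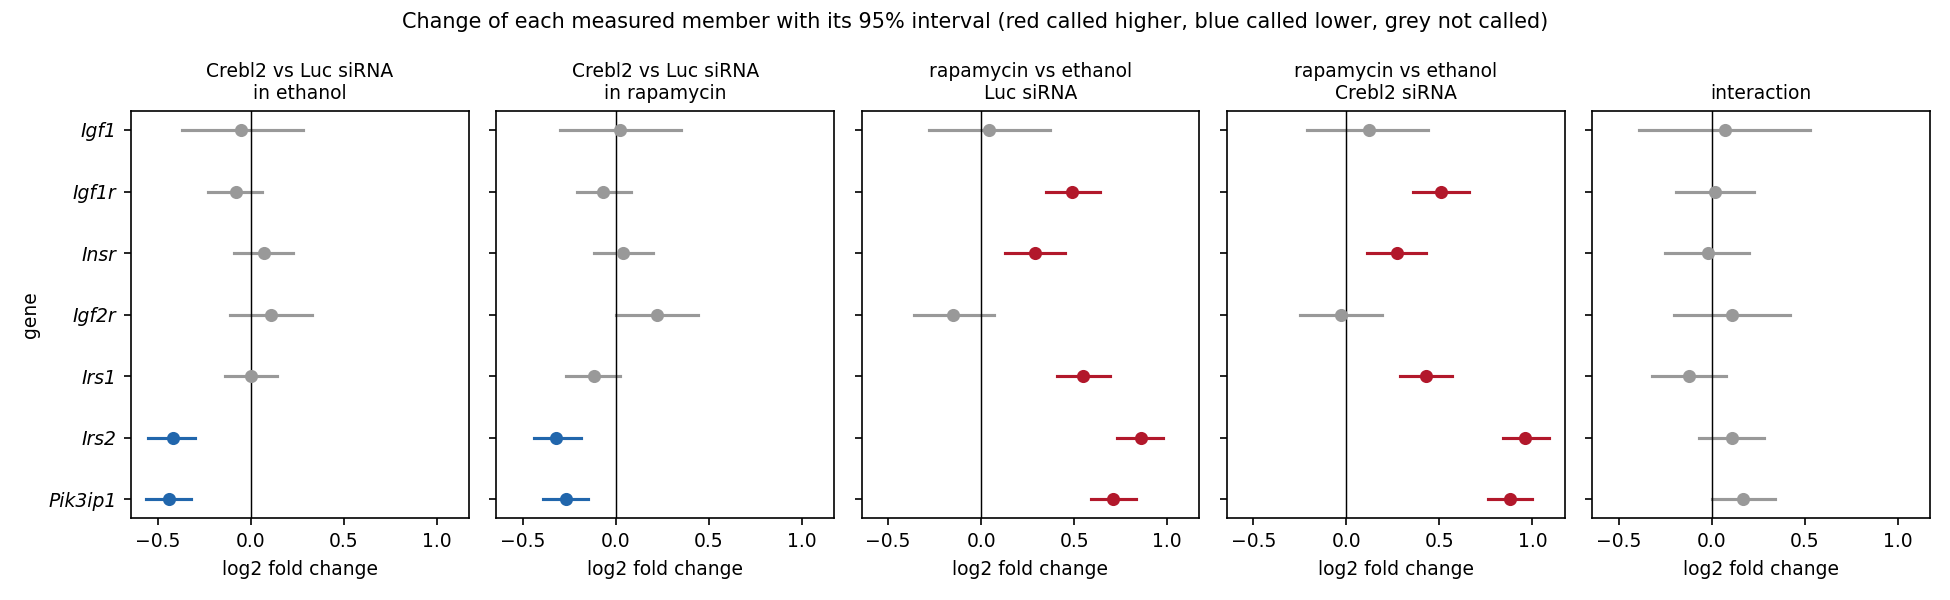
Log2 fold change (horizontal axis) of the 7 measured members (rows) in the 4 pairwise contrasts and the interaction, with lines for the 95% interval. Irs2 and Pik3ip1 lie left of 0 in both siRNA panels and furthest right in both rapamycin panels. Igf1 and Igf2r are grey throughout, and the interaction panel holds no called gene.

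Igf1 encodes the ligand that muscle cells make for themselves. It was a weakly expressed gene here, at 10.3, 12.3 and 12.3 CPM in Luc ethanol and 12.8, 10.1 and 13.1 CPM in Luc rapamycin. In Crebl2 ethanol it stood at 10.6, 11.3 and 11.9 CPM, and in Crebl2 rapamycin 14.7, 8.73 and 13 CPM. All 4 groups overlapped, and the last held both the highest and the lowest library. The log2 difference was −0.05 for the siRNA in ethanol (95% interval −0.37 to 0.28) and 0.04 for rapamycin with the Luc siRNA (−0.28 to 0.37). In rapamycin the siRNA difference was 0.02 (−0.30 to 0.35), and the drug difference on the Crebl2 siRNA was 0.12 (−0.21 to 0.44). Changes of up to about that size are therefore not excluded by these libraries. Without Crebl2 rapamycin replicate 2, the library at 8.73 CPM, the last difference became 0.33 with an edgeR adjusted p = 0.039. Of 5289 counts in all, 5223 fell on 1 of the 7 listed transcripts, and 75.2% of the gene's exonic bases could be counted (chromosome 10, 87858265 to 87937042, plus strand).

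Igf2, the fetal growth factor of the same family, gave 0 counts in all 12 libraries (chromosome 7, 142650766 to 142666816, minus strand). Reads that several listed transcripts share appear to be missing from the deposited counts, since 3 listed Igf1 transcripts whose every exonic base lies in another one, for example, had 0 counts. Only 1574 of the gene's 5249 exonic bases belong to a single listed transcript. A count of 0 allows up to 3 counts, or 0.0699 to 0.0898 CPM depending on the library, on those bases, and says nothing about the rest. This limit covers counting error only. Its imprinted neighbour H19, a long noncoding RNA on the same chromosome, was abundant and fell in all 4 contrasts. H19 stood at 3426, 3351 and 3207 CPM in Luc ethanol and 1621, 1454 and 1580 CPM in Luc rapamycin. Crebl2 ethanol gave 1395, 1484 and 1577 CPM and Crebl2 rapamycin 539, 464 and 564 CPM. These are falls of 1.16 and 1.57 with the siRNA and of 1.10 and 1.51 with rapamycin on the log2 scale, with edgeR adjusted p-values of 1.4e-10 to 7.4e-09.

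Igf1r encodes the kinase receptor for both IGFs (chromosome 7, 67952827 to 68233668, plus strand). Its level was 165, 188 and 191 CPM in Luc ethanol and 256, 242 and 269 CPM in Luc rapamycin. Crebl2 ethanol gave 191, 159 and 164 CPM and Crebl2 rapamycin 245, 238 and 251 CPM. All 6 rapamycin libraries lay above all 6 ethanol libraries. Within a single siRNA, the drug groups did not overlap for 50.4% of all tested genes (Luc) and for 53.6% (Crebl2). The share of genes with all 6 rapamycin libraries apart from all 6 ethanol libraries was not counted. Rapamycin raised Igf1r 1.41-fold with the control siRNA (log2 0.49, SE 0.07, edgeR adjusted p = 3.2e-05) and 1.43-fold on the Crebl2 one (0.51, SE 0.07, edgeR adjusted p = 1.9e-05). The siRNA contrasts were −0.08 (95% interval −0.23 to 0.06) and −0.07 (−0.21 to 0.08).

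Insr, the insulin receptor (chromosome 8, 3122061 to 3279617, minus strand), rose with rapamycin to a smaller extent. Its libraries read 89.5, 103 and 106 CPM in Luc ethanol and 123, 113 and 130 CPM in Luc rapamycin. In Crebl2 ethanol they read 117, 99.9 and 96 CPM, and in Crebl2 rapamycin 123, 126 and 128 CPM. Within each siRNA the drug groups did not overlap, as was so for 50.4% and 53.6% of all tested genes. The highest Crebl2 ethanol library lay above the lowest Luc rapamycin one. The rise of Insr was 1.22-fold (0.29, SE 0.08, edgeR adjusted p = 0.0054) and 1.21-fold (0.27, SE 0.08, edgeR adjusted p = 0.0081). Without Luc rapamycin replicate 3, the first was 0.22 with an edgeR adjusted p = 0.056. For the siRNA the differences were 0.07 (95% interval −0.09 to 0.23) and 0.04 (−0.12 to 0.20).

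Igf2r, which clears IGF2 and also sorts lysosomal enzymes, was not called with rapamycin (chromosome 17, 12682406 to 12769664, minus strand). It stood at 100, 124 and 127 CPM in Luc ethanol and 107, 97.9 and 113 CPM in Luc rapamycin. Crebl2 ethanol gave 151, 113 and 115 CPM and Crebl2 rapamycin 124, 124 and 123 CPM. Ethanol libraries were widely spread, and only the last group was tight. The rapamycin differences were −0.15 (95% interval −0.36 to 0.07) and −0.03 (−0.25 to 0.19). The siRNA difference in ethanol was 0.11 (−0.11 to 0.33). In rapamycin it was 0.22 (SE 0.10, edgeR adjusted p = 0.11), although the groups did not overlap, as was so for 46% of all tested genes in that contrast. That last difference passed in 5 of 20 alternatives, among them DESeq2 (0.25, adjusted p = 0.048) and a fit without Crebl2 ethanol replicate 1 (0.22, edgeR adjusted p = 0.037).

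The 3 receptor RNAs are long, and their spread within a group is set here beside that of other long transcripts. Across 244 genes of over 8000 bases, the median deviation of a library from its group mean was lowest in Luc ethanol replicate 1, at −0.11 on the log2 scale. There Igf1r deviated by −0.13, Insr by −0.15 and Igf2r by −0.22. In Crebl2 ethanol replicate 1 the long transcripts lay at 0.08, and the receptors at 0.16, 0.17 and 0.27 in the same order. Irs1, at 9144 bases longer than Igf2r (8887), deviated by −0.06 and 0.10 in those libraries. Pik3ip1, whose transcript is short, deviated by 0.05 and 0.06. The 244 genes include Igf1r, Insr, Igf2r and Irs1. Between groups, their median rapamycin change was 0.08 with the Luc siRNA and −0.02 with the Crebl2 siRNA. Of them 31.1% and 24.2% were called higher, beside 19.5% and 19.7% of all tested genes. Called lower were 16.4% and 27%, beside 21.6% and 25.6% of all. Whether length has a part in the receptors' changes was not tested. Scaling by long transcripts used a different set, 1093 genes of 5000 to 12000 bases with a single listed transcript. That scaling, a choice made after the receptors' values had been seen, kept Igf1r and Insr called in both rapamycin contrasts.

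**Figure D2:**
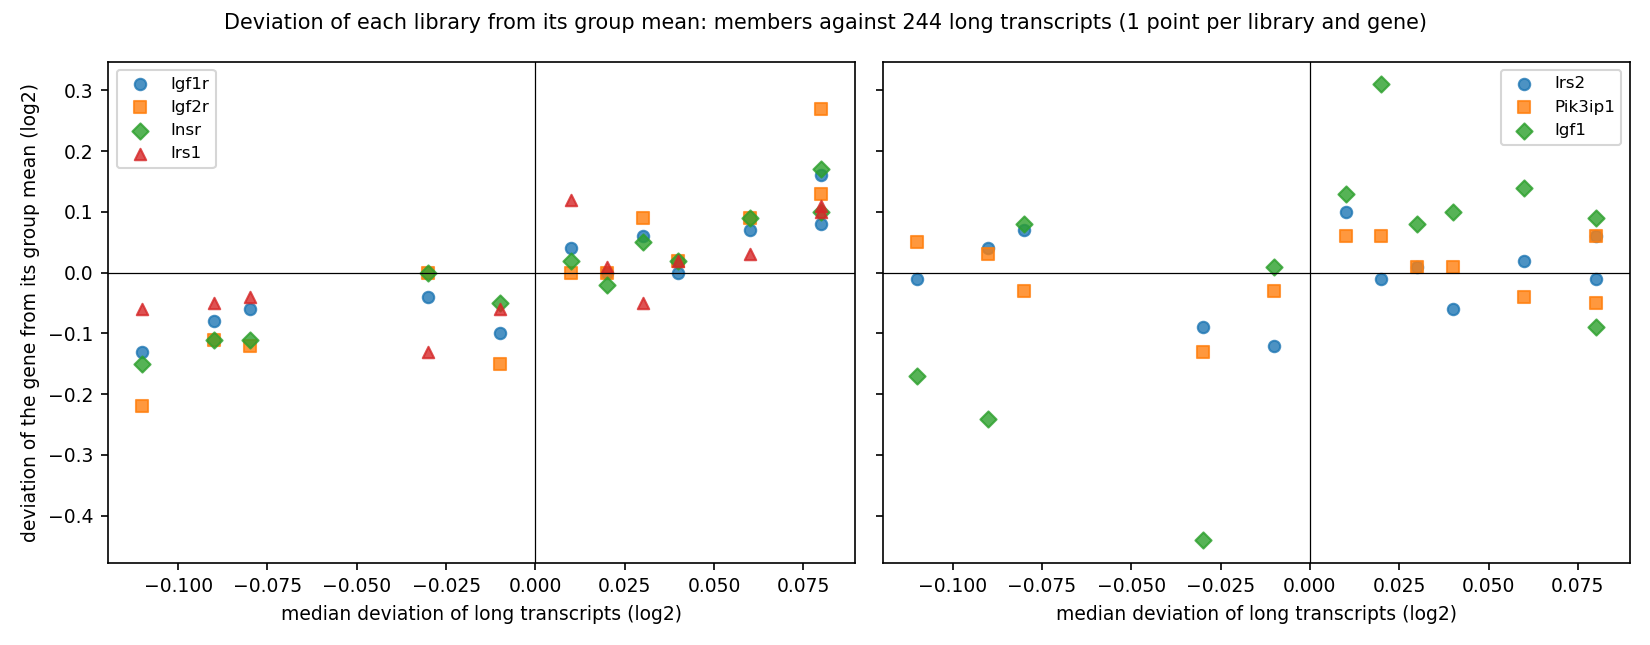
Deviation of each member from its group mean (vertical axis, log2) against the median deviation of 244 long transcripts in the same library (horizontal axis, log2), with 1 point per library and gene. The 3 receptors rise from lower left to upper right, with Igf2r from −0.22 to 0.27. Irs2 and Pik3ip1 stay between −0.13 and 0.10, and Igf1 reaches −0.44.

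The ratio of the kinase receptors to each other varied less than either level, relative to its mean, in 3 of the 4 groups, all but Crebl2 rapamycin. Per countable kilobase, Igf1r exceeded Insr 1.51, 1.5 and 1.48 times in Luc ethanol and 1.71, 1.76 and 1.7 times in Luc rapamycin. Crebl2 ethanol gave 1.34, 1.31 and 1.4 times and Crebl2 rapamycin 1.63, 1.55 and 1.61 times. The 4 groups did not overlap in this ratio, and how often the ratios of other gene pairs do so was not counted. Its log2 value differed by 0.20 and 0.24 for rapamycin against ethanol, and by −0.15 and −0.11 for the Crebl2 against the Luc siRNA in ethanol and rapamycin. The 2-sided exact permutation p was 0.1 for each of these 4 comparisons, the smallest that 3 libraries against 3 allow, so that none can pass.

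Irs1 and Irs2 are the receptor substrates of muscle cells, and only Irs2 was called with the Crebl2 siRNA. Irs1 (chromosome 1, 82233101 to 82291416, minus strand) read 354, 356 and 398 CPM in Luc ethanol and 549, 521 and 554 CPM in Luc rapamycin. In Crebl2 ethanol it read 394, 353 and 359 CPM, and in Crebl2 rapamycin 497, 452 and 540 CPM. The drug groups did not overlap within either siRNA, as was so for 50.4% and 53.6% of all tested genes. The siRNA groups overlapped in both treatments. Rapamycin raised Irs1 1.47-fold (0.55, SE 0.07, edgeR adjusted p = 6.5e-06) and 1.35-fold (0.43, SE 0.07, edgeR adjusted p = 6.2e-05). The siRNA difference was −0.00 in ethanol (95% interval −0.14 to 0.14) and −0.12 in rapamycin (−0.27 to 0.02, edgeR adjusted p = 0.16). Irs1 shares 2822 exonic bases with Gm9747 on the other strand, which had 0 counts.

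Irs2 (chromosome 8, 10984681 to 11008458, minus strand) had the largest rapamycin response of the 7 measured members. It read 61.7, 62.7 and 61.9 CPM in Luc ethanol and 108, 116 and 114 CPM in Luc rapamycin. Crebl2 ethanol gave 48.1, 42.3 and 48.3 CPM and Crebl2 rapamycin 89.6, 85 and 96.5 CPM. No group overlapped another. Of all tested genes, 50.4% and 53.6% did not overlap between the drug groups on the Luc and Crebl2 siRNA. Between the siRNA groups, 46.9% did not overlap in ethanol and 46% in rapamycin. The share of genes with all 4 groups apart was not counted. Rapamycin raised Irs2 1.81-fold with the control siRNA (0.86, SE 0.06, edgeR adjusted p = 1.2e-08) and 1.95-fold on the Crebl2 one (0.96, SE 0.06, edgeR adjusted p = 2.8e-09). The siRNA lowered it 1.34-fold in ethanol (−0.42, SE 0.06, edgeR adjusted p = 4.4e-05) and 1.24-fold in rapamycin (−0.32, SE 0.06, edgeR adjusted p = 0.00053). Cells with both treatments had more Irs2 RNA than cells with neither, at a mean of 90.4 ± 5.78 against 62.1 ± 0.541 CPM (SD, n = 3), a difference that was not tested as a contrast.

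The groups did not overlap in the ratio between the substrates either, again without a count for other gene pairs. Per countable kilobase, Irs1 exceeded Irs2 by 3.97, 3.93 and 4.44 times in Luc ethanol and 3.52, 3.11 and 3.37 times in Luc rapamycin. In Crebl2 ethanol the ratio was 5.66, 5.76 and 5.14, and in Crebl2 rapamycin 3.84, 3.68 and 3.87. It was highest with the siRNA alone and lowest with the drug alone, and the ranges of Luc ethanol and Crebl2 rapamycin lay between, side by side. Its log2 value differed by 0.42 and 0.19 for the siRNA and by −0.30 and −0.54 for rapamycin, each with a 2-sided exact permutation p of 0.1, the smallest possible. Countable bases take counting as strand-specific, a setting not given in the sources used here. If strand was ignored, 69.1% of the Irs1 bases and 97.4% of the Irs2 bases were countable, and every ratio would be higher.

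Grb10, the adaptor that inhibits both kinase receptors and is a known mTOR substrate as a protein, gave 0 counts in all 12 libraries (chromosome 11, 11930508 to 12038683, minus strand). Of its 5130 exonic bases only 279 belong to a single listed transcript, or 5.44%. Its RNA level is therefore close to unmeasured by these counts, and no statement on its change is possible. The related adaptor Grb14, all of whose bases were countable, rose with the Crebl2 siRNA from 8.02 ± 0.331 to 11.5 ± 0.744 CPM in ethanol (0.51, SE 0.08, edgeR adjusted p = 0.00017) and from 7.91 ± 0.164 to 12.6 ± 1.01 CPM in rapamycin (0.67, edgeR adjusted p = 2e-05).

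Pik3ip1, the PI3 kinase inhibitor, moved as Irs2 did (chromosome 11, 3330401 to 3342971, plus strand). Its level was 53.7, 52.1 and 50.1 CPM in Luc ethanol and 85.6, 86.9 and 82.7 CPM in Luc rapamycin. In Crebl2 ethanol it was 39.9, 37.5 and 37.5 CPM, and in Crebl2 rapamycin 73.5, 64.5 and 73.6 CPM. Again no group overlapped another. In a single pairwise contrast 46% to 53.6% of all tested genes did not overlap, and the share with all 4 groups apart was not counted. The siRNA lowered Pik3ip1 1.36-fold in ethanol (−0.44, SE 0.06, edgeR adjusted p = 2e-05) and 1.21-fold in rapamycin (−0.27, SE 0.05, edgeR adjusted p = 0.0013). With rapamycin it increased 1.64-fold with the control siRNA (0.71, SE 0.05, edgeR adjusted p = 5.6e-08) and 1.84-fold on the Crebl2 one (0.88, SE 0.06, edgeR adjusted p = 4.6e-09). One of its 2 listed transcripts carried 27468 of 27520 counts, and 75.7% of the exonic bases were countable. Gm12592, on the other strand, shares 91 of them.

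**Figure D3:**
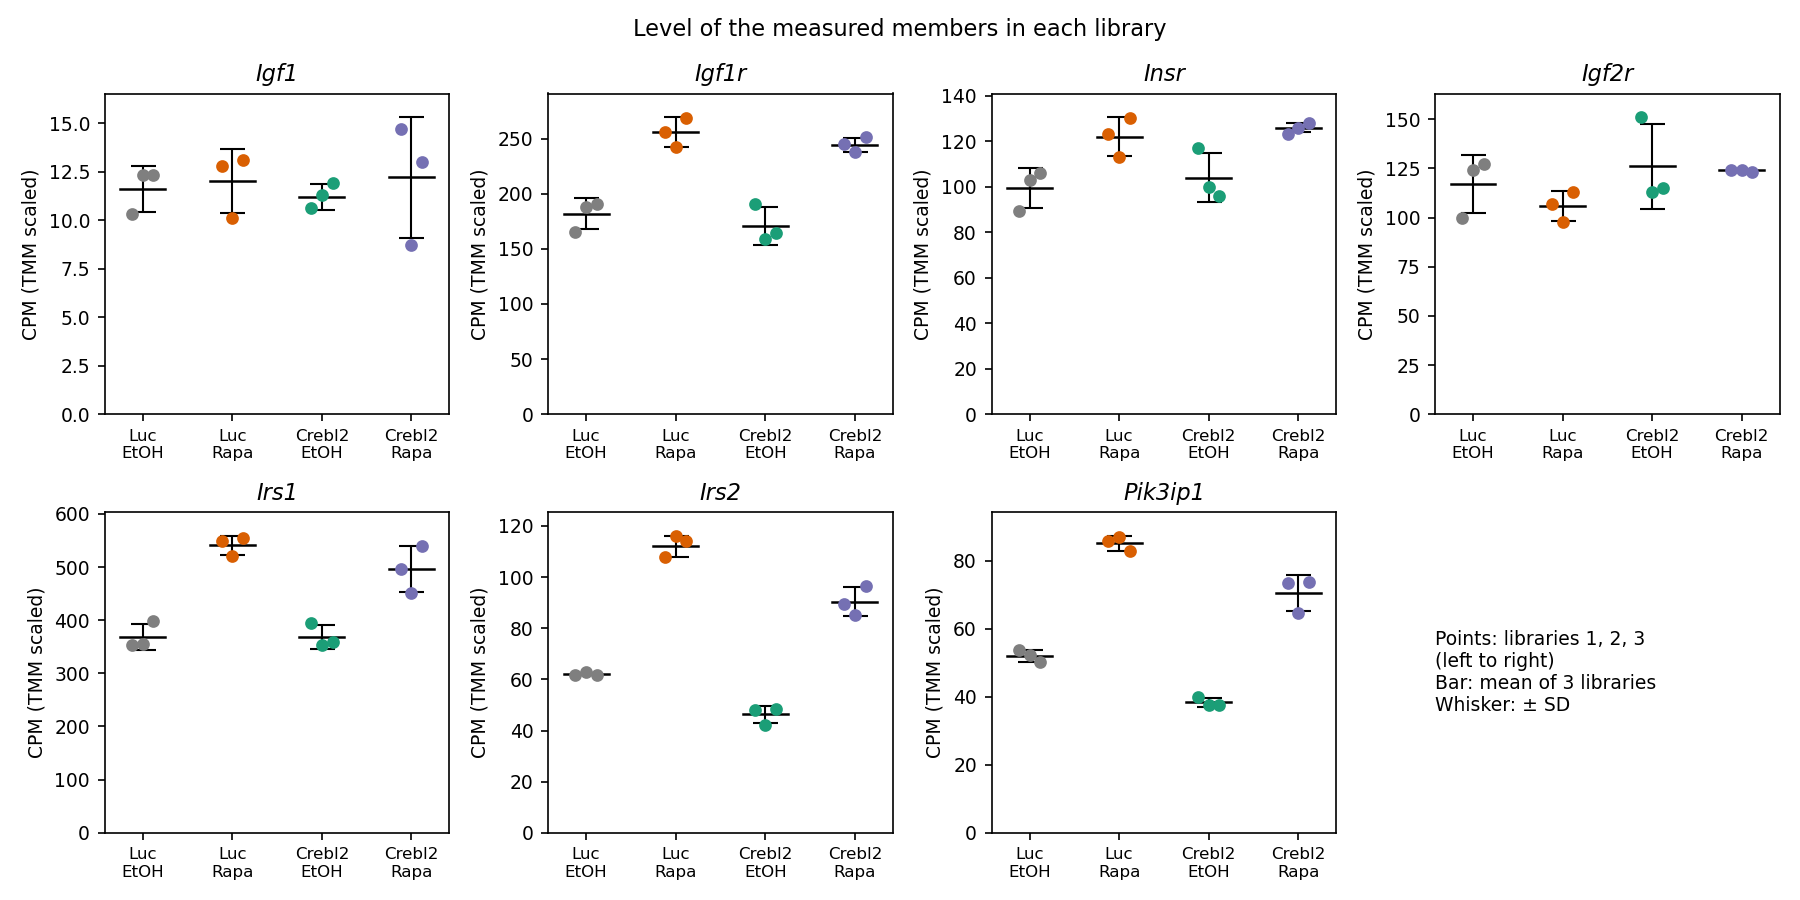
Level in CPM (vertical axis, from 0, a separate scale for each gene) of the 7 measured members in the 4 groups, with points for libraries 1 to 3, a bar for the mean and whiskers for ± SD. In the Irs2 and Pik3ip1 panels the 4 groups are separate, from 42.3 to 116 CPM and from 37.5 to 86.9 CPM. In the Igf1 panel they run into each other. In the Igf2r panel Luc rapamycin and Crebl2 rapamycin stay apart, and Luc ethanol overlaps both.

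The interaction asks whether rapamycin acted differently with the Crebl2 siRNA than with the Luc siRNA. Among all tested genes 1.2% were called in either direction, and of the 7 members 0 were called by edgeR or by DESeq2. The only member with an unadjusted p under 0.05 was Pik3ip1, with a value of 0.17 (SE 0.08, edgeR adjusted p = 0.34). Intervals of the other 6 were −0.07 to 0.28 for Irs2, −0.32 to 0.08 for Irs1, −0.19 to 0.23 for Igf1r and −0.25 to 0.20 for Insr. For Igf2r and Igf1 they were −0.20 to 0.42 and −0.39 to 0.53. Differences of these sizes between the drug responses are not excluded. All pairwise calls of members had a 2-sided exact permutation p of 0.1, the smallest that 3 libraries against 3 allow.

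Levels can be compared between genes only per length, here as CPM per countable kilobase, with counting taken as strand-specific. If strand was ignored, 69.1% of the Irs1 bases were countable and its values would be higher. The order of means in Luc ethanol was Irs1 (40.4), Pik3ip1 (23.2), Igf1r (15.9), Igf2r (13.2), Insr (10.6), Irs2 (9.82) and Igf1 (1.56). Neighbours overlapped in their libraries for Igf2r and Insr, and for Insr and Irs2. By means, Irs2 stood below Insr in both ethanol groups and above it in both rapamycin groups. In Luc rapamycin it was at 17.8, above Insr (13) and Igf2r (11.9) with no overlap, and with the Crebl2 siRNA in ethanol at 7.32, below Insr (11.1) with no overlap. With both treatments it was 14.3 and overlapped Igf2r (13.9) and Insr (13.4). Irs1, Pik3ip1 and Igf1r kept the first 3 places in all 4 groups, and Igf1 the last. Igf1r and Igf2r overlapped with the Crebl2 siRNA in ethanol, at 15 and 14.2.

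**Figure D4:**
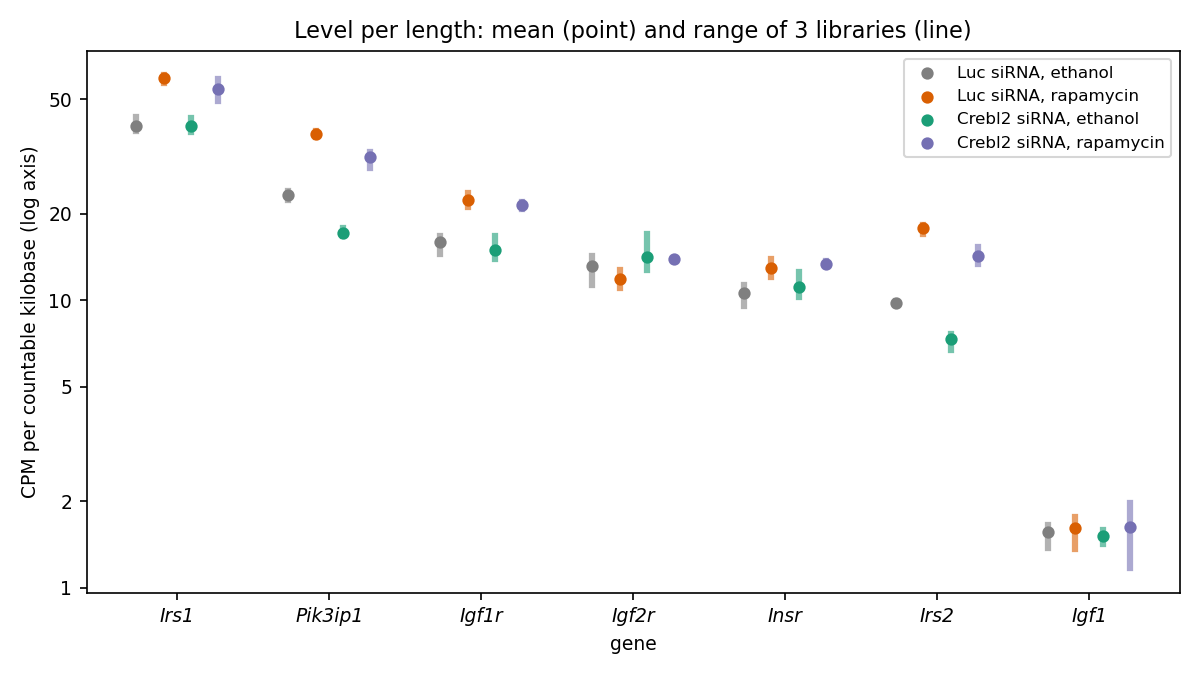
Level per countable kilobase (vertical log axis, CPM per kilobase) of the 7 measured members, with a point for the mean and a line for the range of 3 libraries in each of the 4 groups. Irs1 is uppermost at 40.3 to 59.2, Igf1 lowest at 1.51 to 1.63, and Irs2 spans 7.32 to 17.8.

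Genes whose log2 level over the 12 libraries was most like each member were sought among 6984 protein-coding genes. Pearson's r here is a description: the libraries fall into 4 groups, so that it largely compares group means. Irs2 was most like Enc1 (r = 0.994), Klf11 (0.993) and Ltbp3 (0.993). For Pik3ip1 the first was Irs2 itself (0.991), then Klf11 (0.989) and Snx33 (0.989). Klf11, whose promoter letters are shown above, had log2 changes of −0.32 and −0.27 with the siRNA and 0.74 and 0.79 with rapamycin, all 4 called. Pcbp1 and Pyroxd1, which hold the same motif pair, were not among the genes most like any member. Enc1, Ltbp3 and Pik3ip1 are not among the genes with that pair. Irs1, which holds it, was not called with the siRNA. Any part of the pair in these patterns was not tested. Irs1 was most like Bicral (0.985), Sik3 (0.982) and Ptprm (0.979). The genes nearest to the receptors were Chd6 (0.991), Lrrk1 (0.988) and Plxna3 (0.978) for Igf1r and Ahnak (0.987), Fat4 (0.984) and Cramp1l (0.982) for Insr. Igf2r had weaker matches in Map1b (0.914), Mcm3ap (0.908) and Cbl (0.893). Igf1 had none above 0.777 (Zfp729b).

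Beyond the members, 90 genes of the pathway were listed in 8 groups and 69 were tested. With the Crebl2 siRNA in ethanol 13 rose (18.8%) and 16 fell (23.2%), where 21.4% of all tested genes rose and 17% fell. In rapamycin 9 rose (13%) and 15 fell (21.7%), beside 16.3% and 16.8% of all genes. With rapamycin on the Luc siRNA 17 rose (24.6%) and 16 fell (23.2%), beside 19.5% and 21.6%. On the Crebl2 siRNA 12 rose (17.4%) and 15 fell (21.7%), beside 19.7% and 25.6%. Their median log2 fold changes were 0.03, −0.04, −0.00 and −0.05 in the same order, beside 0.01, −0.01, 0.02 and −0.01 for all genes. Calls thus ran in both directions in every contrast, with shares and medians near those of all genes. The groups that follow are small, and their counts are descriptions to be read against these shares. Only 28 of the 69 had more than 90% of their bases countable, and 4 had under 10%.

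Of 5 tested PI3 kinase subunits, 3 fell and 0 rose with the siRNA in ethanol, and 2 fell and 0 rose in rapamycin. Over all genes 17% and 16.8% fell and 21.4% and 16.3% rose in these contrasts. Those that fell include Pik3r3, a regulatory subunit, by 0.31 and 0.51 on the log2 scale (edgeR adjusted p = 0.0035 and 0.0001). Pik3r1, which encodes the p85-alpha regulatory subunit, fell by 0.23 and 0.27 (edgeR adjusted p = 0.0044 and 0.0016). Rapamycin lowered Pik3r3 too, by 0.40 and 0.60. Countable were 65.2% and 67.3% of their bases. For the 13 other adaptors, 3 rose and 0 fell with the siRNA in ethanol, and 2 rose and 0 fell in rapamycin, shares near those of all genes that rose. Dok1, a docking protein that attenuates tyrosine kinase signals, was among them at 0.40 and 0.46, and it also rose with rapamycin by 0.30 and 0.35.

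Of 19 tested negative regulators of the pathway, 9 rose and 1 fell with rapamycin on the Luc siRNA, beside 19.5% and 21.6% of all genes. On the Crebl2 siRNA 6 rose and 2 fell, beside 19.7% and 25.6%. With the siRNA 3 rose and 5 fell in ethanol and 1 rose and 5 fell in rapamycin, beside 21.4% and 17%, and 16.3% and 16.8%. Their median rapamycin changes were 0.19 and 0.07. Inpp5k, an inositol phosphatase that removes the PI3 kinase product, had the pattern of Irs2 and Pik3ip1. It stood at 82.2, 81.5 and 79.9 CPM in Luc ethanol and 137, 137 and 131 CPM in Luc rapamycin. In Crebl2 ethanol it was 47.3, 54.7 and 50.4 CPM, and in Crebl2 rapamycin 96.5, 99.3 and 102 CPM. The siRNA thus lowered it (−0.68 and −0.44, edgeR adjusted p = 1.1e-07 and 7.1e-06) and rapamycin raised it (0.73 and 0.97, edgeR adjusted p = 1.4e-08 and 6.2e-10). Ptprf, a receptor tyrosine phosphatase, changed by −0.46 and −0.45 with the siRNA and by 0.71 and 0.72 with rapamycin, all 4 called. Enpp1, a membrane protein that inhibits the insulin receptor, fell with the siRNA by 0.45 and 0.63. Trib1, a pseudokinase, went the other way, from 29.7 ± 1.35 to 46 ± 0.949 CPM in ethanol and from 33.8 ± 1.13 to 54.2 ± 2.29 CPM in rapamycin (0.63 and 0.68, edgeR adjusted p = 2.7e-07 and 1.3e-07).

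**Figure D5:**
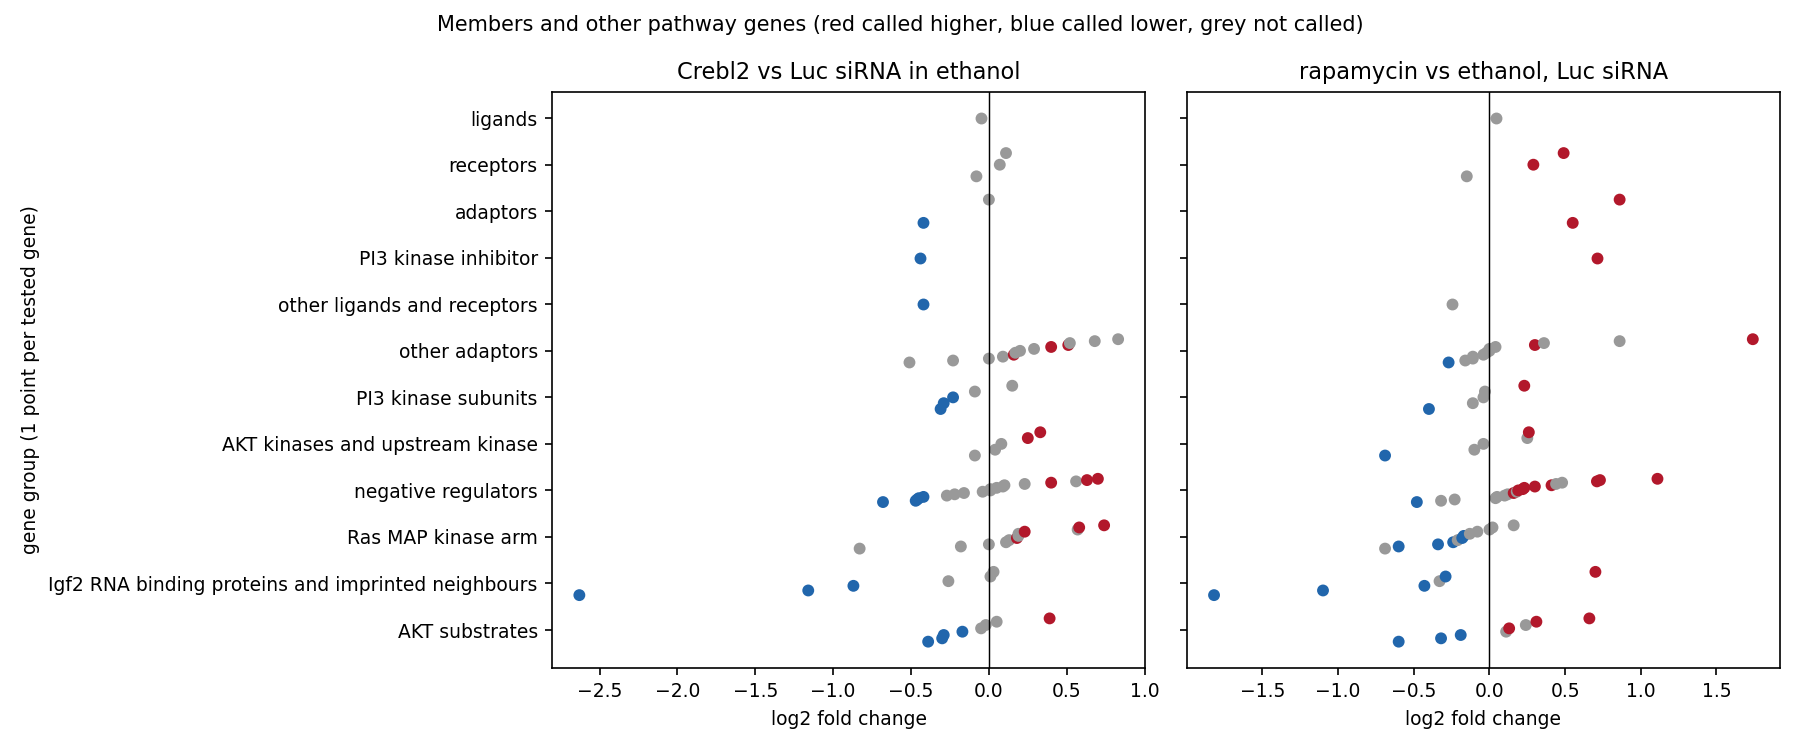
Log2 fold change (horizontal axis) of each tested member and pathway gene, 1 point per gene, by group (vertical axis), for the Crebl2 siRNA in ethanol (left) and rapamycin with the Luc siRNA (right). PI3 kinase subunits have 3 blue points and no red one on the left, and negative regulators have 9 red points and 1 blue on the right. H19 lies at −1.16 and −1.10 among the imprinted neighbours.

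Of 12 tested genes of the Ras and MAP kinase arm, 4 rose and 0 fell with the siRNA in ethanol, and 3 rose and 0 fell in rapamycin, where 21.4% and 16.3% of all genes rose and 17% and 16.8% fell. Rapamycin lowered 5 and raised 0 on the Luc siRNA, and lowered 5 and raised 1 on the Crebl2 siRNA, where 21.6% and 25.6% of all genes fell and 19.5% and 19.7% rose. Spry4, a feedback inhibitor of this arm, went from 11.9 ± 0.501 to 19.9 ± 2.43 CPM with the siRNA in ethanol (0.74, SE 0.09, edgeR adjusted p = 1.6e-05) and to 7.87 ± 0.262 CPM with rapamycin (−0.60, SE 0.10, edgeR adjusted p = 0.00013). Nras rose with the siRNA by 0.58 and 0.67 (edgeR adjusted p = 8.6e-07 and 2.5e-07).

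Of the AKT kinases and their upstream kinases, 2 of 5 rose and 0 fell with the siRNA in each treatment, beside 21.4% and 16.3% of all genes that rose. Akt2 fell with rapamycin by 0.69 and 0.78, at levels of 2.13 to 5.14 CPM and with 36.7% of its bases countable. Among 8 tested AKT substrates, 1 rose and 4 fell with the siRNA in ethanol, and 1 rose and 5 fell in rapamycin, beside 17% and 16.8% of all genes that fell. Rapamycin raised 3 and lowered 3 of them on the Luc siRNA, and raised 3 and lowered 2 on the Crebl2 siRNA, beside 19.5% and 19.7% of all genes that rose and 21.6% and 25.6% that fell. The transcription factor Foxo1, which AKT keeps out of the nucleus, rose with rapamycin by 0.66 and 0.50 (edgeR adjusted p = 8.6e-08 and 1.5e-06), from 61.4, 62.9 and 60.9 to 96, 96.3 and 101 CPM with the Luc siRNA. Foxo4 fell with the siRNA by 0.39 and 0.36 (edgeR adjusted p = 8.2e-06 and 2.6e-05).

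Around the imprinted Igf2 and Igf2r loci and among the proteins that bind Igf2 RNA, 3 of 6 tested genes fell and 0 rose with the siRNA in each treatment, where 17% and 16.8% of all genes fell. With rapamycin 4 fell and 1 rose on the Luc siRNA, and 1 fell and 0 rose on the Crebl2 siRNA, where 21.6% and 25.6% fell. Airn, the noncoding RNA that is read from within Igf2r on its other strand, went from 2.53, 3 and 2.97 to 1.73, 1.26 and 1.63 CPM with the siRNA in ethanol (−0.87, SE 0.16, edgeR adjusted p = 0.00046). In rapamycin it changed by −0.71 (SE 0.17, edgeR adjusted p = 0.0038). The strand setting of the counting was not given in the sources used here. Unspliced Igf2r RNA and Airn can therefore not be told apart with certainty, although the library kit marks strand.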

How the data were processed

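Total RNA libraries were made with a kit that marks strand, per the labels' protocols. The authors deposited unnormalized counts of reads for each of 58611 transcripts in the 12 libraries. Per the submitters' processing notes the tools were Trim Galore, TopHat and HTSeq, and the builds mm9 and GRCm38, with no version given. The strand setting and the rule for shared reads are not given in the sources used here. Of the transcripts, 99.41% matched GENCODE M21 (347 did not, with 0.038% of counts) and were summed per gene, and reads shared between listed transcripts appear to be missing. "Countable" bases belong to 1 listed transcript.

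Genes passing edgeR's filter (minimum count of 10 by group, 13247 genes) were scaled by TMM and tested with edgeR (version 4.0.16, R 4.3.3), each group having its own mean and all 12 libraries sharing the spread. The common biological coefficient of variation was 6.85%. SE is |log2 fold change| over the root of the F statistic, and intervals are 95%. Alternatives were DESeq2 1.42.0, RLE scaling, a minimum count of 50 or none, compared groups only, a replicate block, single transcripts, each library left out, and scaling by long transcripts (added after the data were seen). The last used 1093 genes of 5000 to 12000 bases with a single listed transcript. Members, lists and tests were chosen with earlier results of these data known. Pathway genes were named by a rule: the 2 called genes of a list with the largest change in a contrast at a mean of at least 1 CPM, and up to 4 for the interaction, of which the text gives a part. Like genes were the 3 with the highest r at a mean of at least 5 CPM. Promoter windows were searched on both strands. A planned comparison of protein sequences was not made.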

Additional observations from a re-analysis of the deposited data

Results flagged for a closer look

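Trib3, a pseudokinase that binds AKT and inhibits it, was the only one of 69 tested pathway genes whose rapamycin response differed between the siRNAs by edgeR's interaction test (log2 fold change −0.94, SE 0.14, edgeR adjusted p = 0.003). Levels were 6.54, 5.92 and 7.2 CPM in Luc ethanol, 4.52, 4.76 and 4.81 CPM in Luc rapamycin, 10.4, 10.4 and 11.1 CPM in Crebl2 ethanol, and 4.01, 4.24 and 3.71 CPM in Crebl2 rapamycin. The rapamycin change was −0.48 with the Luc siRNA and −1.42 with the Crebl2 siRNA. The siRNA raised Trib3 in ethanol (0.70, edgeR adjusted p = 2.7e-05) and was not called in rapamycin (−0.24, edgeR adjusted p = 0.092). No member met the same criterion.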

How the results depend on the processing

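Of 693 alternative values of member changes, 648 kept their direction and side of the threshold, 7 became called and 1 lost its call. The other 37 changed sign, and 0 of these were called under either setting. The calls of Irs2, Pik3ip1, Irs1 and Igf1r held in all of them. Igf2r with the siRNA in rapamycin (0.22) was also called without the count filter (0.25), with the compared groups only (0.23) and with scaling by long transcripts (0.26), and Igf2r with rapamycin on the Luc siRNA (−0.15) without the filter (−0.19). The changes of sign belong to 10 small differences. With a library left out, Igf1 with the siRNA in rapamycin ranged from −0.11 to 0.24 and its rapamycin differences from −0.05 to 0.13 and −0.02 to 0.33, Igf2r with the siRNA in ethanol from −0.04 to 0.19 and with rapamycin on the Crebl2 siRNA from −0.11 to 0.12, and Insr and Irs1 with the siRNA in ethanol from −0.02 to 0.12 and −0.05 to 0.05. Interactions ranged from −0.03 to 0.32 for Igf1, −0.03 to 0.11 for Igf1r and −0.08 to 0.08 for Insr. The Insr interaction was also 0.00 with RLE scaling and DESeq2, 0.03 without the filter, 0.04 for its single transcript and 0.08 with scaling by long transcripts. Scaling by long transcripts gave −0.02 for Igf1 with rapamycin on the Luc siRNA (−0.00 for its single transcript) and 0.01 for Igf2r with rapamycin on the Crebl2 siRNA (0.00 with the compared groups only). Irs1 with the siRNA in ethanol was 0.00 with RLE scaling and DESeq2. For the other genes with values in the text, 1207 of 1259 values stayed as they were, 12 became called and 31 lost their call. The remaining 9, of Pyroxd1 with rapamycin on the Luc siRNA, changed sign (−0.03 without the filter, −0.02 for its single transcript, −0.05 with scaling by long transcripts, and −0.02 to 0.04 with a library left out). The number of genes called for the interaction, 159, was 388 with DESeq2, 415 without the count filter and 85 to 172 with a library left out. Pathway genes called there, 1, were 3 with DESeq2, 3 without the filter and 1 to 2 with a library left out. The causes were not tested. Replicate numbers did not pair the libraries (18 correlations of deviations between same-numbered libraries from −0.51 to 0.3, 3 over 0.1, and 2 of 12 libraries closest to their own number). The fit with the replicate block called 91 genes for the interaction, and it changed no member's call. With 3 libraries a group, member changes whose intervals include 0 cannot be told from none.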
